A study of Homo sapiens with 4 samples.

Results

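The subject here is the difference between the interleukin-21 (IL-21) responses of RC-K8-R and RC-K8, taken gene by gene as the log2 response of RC-K8-R minus the log2 response of RC-K8. All 4 samples of the series enter it, each measured on 1 Agilent 2-colour array against a common human reference RNA. They are RC-K8-R treated with IL-21 (100 ng/mL, 6 h), RC-K8-R untreated, RC-K8 given the same dose for the same time, and RC-K8 untreated. RC-K8 is an established diffuse large B-cell lymphoma line that dies by apoptosis when given IL-21, and RC-K8-R is a resistant line raised from it by 10 weeks of growth in rising amounts of IL-21. Whether RC-K8-R is a clone or a pool, and how long it was kept without IL-21 before its untreated sample, is not given in the sources used here. A gene was a member when at least 1 of its probes had a value on all 4 arrays, which held for 13446 of the 16815 genes with a named probe. Of these, 9067 had 1 probe and 4379 had 2 or more. There was 1 array per group and no replicate, so nothing below was tested, and the number of arrays limits the precision of every value. The only error that can be given is the SD between probes of the same gene, which does not cover differences between cultures.

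IL-21 binds a receptor made of its own chain, IL21R, and the common gamma chain, IL2RG, which the receptors for several related cytokines share. The receptor activates the kinases JAK1 and JAK3, which phosphorylate STAT factors, chiefly STAT3, and these enter the nucleus and switch on target genes. Direct targets in lymphocytes include feedback inhibitors such as SOCS3 and transcription factors such as BCL6, and the downstream factor MYC is known for driving genes of ribosome assembly, translation and metabolism.

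Levels are given as log2 ratios of sample to reference RNA, with each array centred on its median. They compare a gene between arrays and not 1 gene with another, and where a gene has several probes each quantity is the median over its probes. Markers of B cells were found at mixed levels. The 7 measured markers of a 10-gene B cell list had median levels of 2.13 in RC-K8-R with IL-21, 1.73 in RC-K8-R untreated, 1.37 in RC-K8 with IL-21 and 0.95 in RC-K8 untreated. By member the list had a median response of 0.28 in RC-K8-R and -0.75 in RC-K8, and a median difference of 0.92. Of the 7 members 2 were at 1 or more (2.47% of all genes) and 1 at -1 or less (2.31%). CD20, encoded by MS4A1, was at 7.42, 7.68, 5.21 and 6.20 in the same order of arrays. BTK, on the same list, was below the reference at -2.16, -2.44, -3.58 and -2.06. CD22 and FCRLA, also on the list, had no value on any array. Markers of T and NK cells, epithelial cells, fibroblasts and hepatocytes had medians between -6.54 and -1.76 on the 4 arrays, and myeloid markers between -0.58 and 0.28. None of the measured hepatocyte, epithelial, myeloid or T and NK cell markers reached 2-fold in the difference of responses, and 1 of 6 fibroblast markers did. Of all genes 4.77% did.

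The response to IL-21 that RC-K8 showed was for the most part not seen in RC-K8-R. In RC-K8, 193 genes were 2-fold or more higher with IL-21, which is 1.44% of all, and 224 were 2-fold or more lower, which is 1.67%. In RC-K8-R, 46 genes were 2-fold higher, or 0.342%, and 81 were 2-fold lower, or 0.602%. The SD of the response over all genes was 0.26 in RC-K8-R and 0.42 in RC-K8, and 0.49 for the difference between them. The median response was 0.00 in RC-K8-R and -0.04 in RC-K8, and the median difference was 0.02.

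The difference of responses was 1 or more on the log2 scale, in favour of RC-K8-R, for 332 genes (2.47%), and -1 or less for 310 genes (2.31%). A positive difference means that IL-21 moved the gene further up, or less far down, in RC-K8-R than in RC-K8. Just inside and outside these limits lay ARLNC1 at 1 and FLI1 at 0.997 on the positive side, and PRDX4 at -1 and GAR1 at -0.999 on the negative side, so membership turns on very small amounts there. Of the 642 genes at 2-fold in either direction (4.77%), 347 were at 2-fold in RC-K8 alone, 87 in RC-K8-R alone, 9 in both lines and 199 in neither.

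Level mattered for how far these values can be read. Among the 1161 genes with a mean log2 ratio below -2, called low-ratio genes here, 16% were at 2-fold in the difference, against 3.71% of the 12285 genes at -2 or more. The contrast was sharper for RC-K8-R, in which 8.44% of the low-ratio genes and 0.236% of the others were at 2-fold. For RC-K8 these shares were 7.06% and 2.73%. Genes well above the reference also differed often: 21.4% of the 332 genes at a mean ratio of 2 or more were at 2-fold in the difference, and in these 0.602% were at 2-fold in RC-K8-R and 17.2% in RC-K8. Among genes with 2 or more probes, the SD between probes of the difference had a median of 0.199 and a 95th percentile of 0.756.

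**Figure D1:**
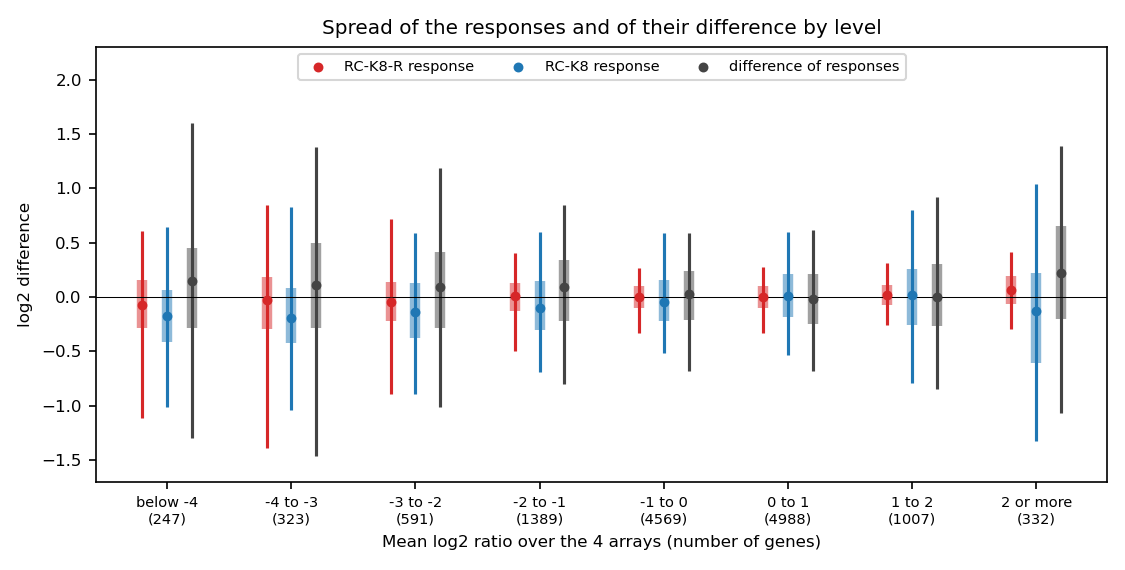
Spread of the 2 responses and of their difference by mean log2 ratio to the reference, for all 13446 genes. Points are medians, thick bars run over the middle 50% of genes and thin lines over the middle 90%; the thin lines of RC-K8-R are widest below -2 and narrow above it, whereas those of RC-K8 are also wide at a mean ratio of 2 or more.

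Genes at 2-fold in RC-K8 were sorted by what they did in RC-K8-R. A response was called kept at 2-fold or more in the same direction, reduced at a log2 of 0.5 to 1 in that direction, lost under 0.5 either way, and inverted at 0.5 or more in the other direction. Of the 193 genes higher with IL-21 in RC-K8, 176 were lost (91.2%), 5 reduced, 4 kept and 8 inverted. Of the 224 genes lower in RC-K8, 197 were lost (87.9%), 12 reduced, 2 kept and 13 inverted. Responses under 0.5 were the rule in RC-K8-R, at 95.4% of all genes, so the shares lost are no higher than for genes chosen without regard to RC-K8.

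At a mean log2 ratio of -2 or more the picture was plainer. There, 162 of 167 induced genes were lost (97%), 3 were reduced, 2 were inverted and 0 were kept. Likewise 162 of 168 repressed genes were lost (96.4%), 2 were reduced, 4 were inverted and 0 were kept. Of all genes at that level, 97.1% had a response under 0.5 in RC-K8-R. Across successive ranges of the RC-K8 response, from below -2 to 2 or more, the median response in RC-K8-R stayed between -0.01 and 0.07. Genes with several probes gave like counts: of 58 induced genes with 2 or more probes that agreed in direction in RC-K8, 58 were lost, and of 55 repressed genes 53 were lost, 1 was reduced and 1 was kept. Of all genes with 2 or more probes, 97.7% were under 0.5 in RC-K8-R. The 2 responses share no sample array.

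**Figure D2:**
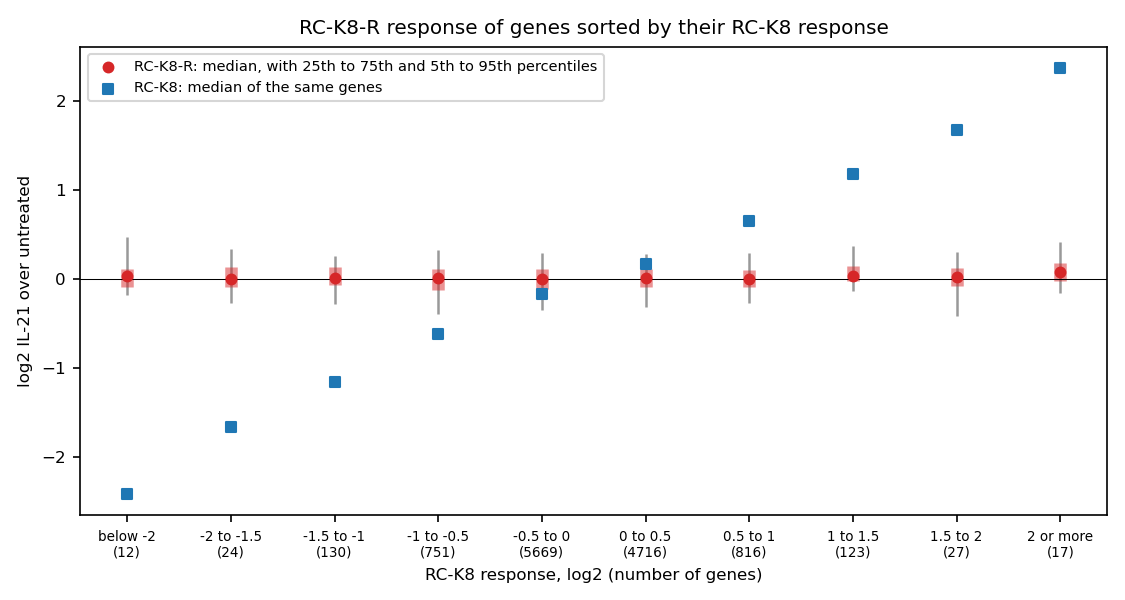
Response to IL-21 in RC-K8-R, and in RC-K8, of genes grouped by their RC-K8 response, at a mean log2 ratio of -2 or more (number of genes under each group). Circles are RC-K8-R medians with bars over the middle 50% and lines over the middle 90% of genes, squares are RC-K8 medians; the RC-K8-R medians lie within 0.07 of 0 in every group.

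**Figure D3:**
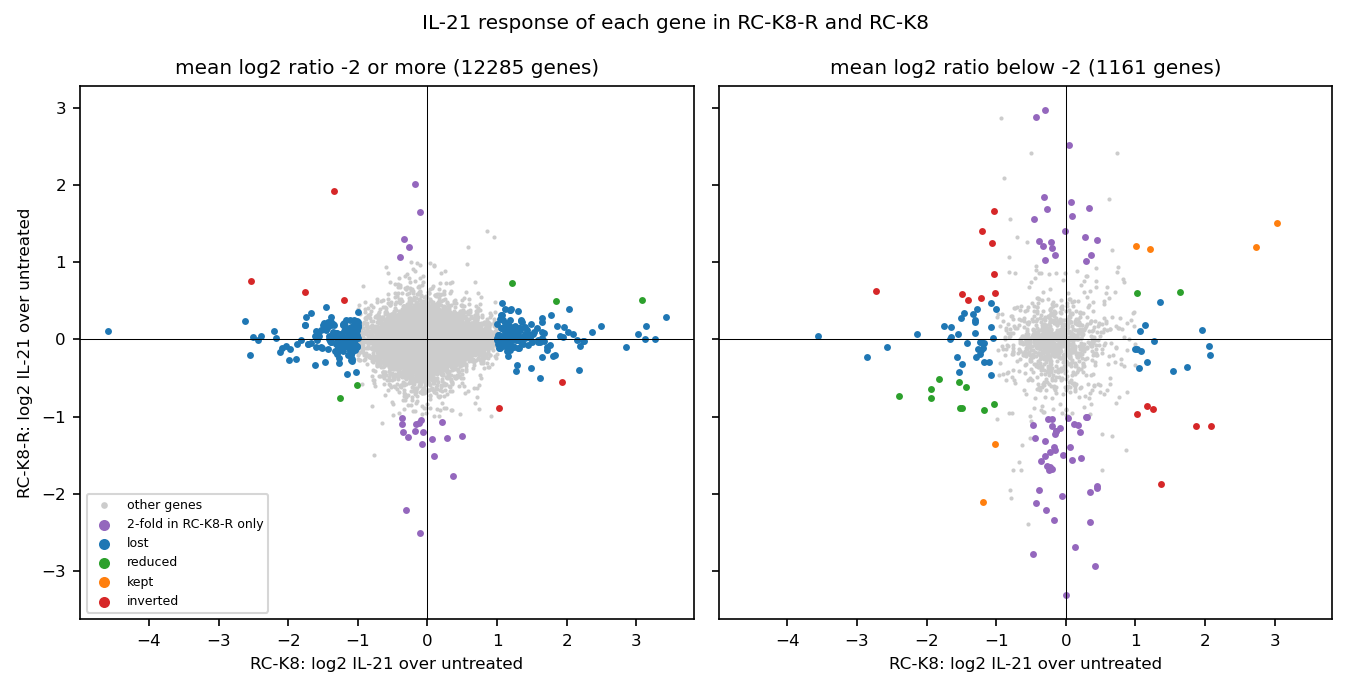
Response of each gene in RC-K8-R (vertical axis) against its response in RC-K8 (horizontal axis), both as log2 of IL-21 over untreated, for 12285 genes at a mean log2 ratio of -2 or more and 1161 below it. Colours give the class of each gene, with purple for the 85 genes at 2-fold in RC-K8-R and under 0.5 in RC-K8; at -2 or more the RC-K8 responders lie along the horizontal axis, with 6 inverted, 5 reduced and 0 kept.

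The levels show where the lines stood on each array. Genes induced in RC-K8 had median levels of 0.18 in RC-K8-R with IL-21 and 0.05 in RC-K8-R untreated, against 1.14 in RC-K8 with IL-21 and -0.22 in RC-K8 untreated, over the 167 such genes at a mean ratio of -2 or more. The RC-K8-R arrays thus lay between the 2 RC-K8 arrays, nearer to the untreated one. The 168 genes repressed in RC-K8 had medians of 1.19, 1.23, -0.45 and 0.80 in that order, so both RC-K8-R arrays lay above both RC-K8 arrays. The untreated RC-K8 array was used to choose these genes, and it is also 1 side of the gap between untreated lines, so that gap is not independent of the choice. Likewise, choosing genes by their RC-K8 response fixes the sign of the difference for most of them, and that sign is no finding.

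Strongly induced genes whose response was lost included regulators of signalling, transcription and metabolism. ZBED2, a zinc finger transcription factor, was at -0.55 with IL-21 and -0.85 untreated in RC-K8-R, and at 4.09 with IL-21 and 0.66 untreated in RC-K8. The treated RC-K8 array thus stood far above the other 3, and the difference of responses was -3.13 on 1 probe. CEMIP2, a cell-surface protein of hyaluronan turnover, was at -1.69 and -1.702 in RC-K8-R with and without IL-21, and at 1.32 and -1.81 in RC-K8. Here 3 arrays were level and only treated RC-K8 stood out, with a difference of -3.12 (SD between probes 0.233, 2 probes). JMY, which nucleates actin filaments and acts as a p53 cofactor, was at 1.48, 1.30, 2.42 and -0.08 on the RC-K8-R IL-21, RC-K8-R untreated, RC-K8 IL-21 and RC-K8 untreated arrays, the order used for all sets of 4 levels below. Untreated RC-K8 was the lowest of these, and the difference was -2.32.

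Several genes of this kind were carried by more than 1 probe. ZNRF1, an E3 ubiquitin ligase, had 4 probes with differences between -2.34 and -2.22, and levels of -1.34, -1.43, 1.07 and -1.27. NAMPT, which makes the precursor of NAD, had 3 probes between -2.36 and -2.03, and levels of -0.05, -0.16, 1.59 and -0.64. In both, treated RC-K8 alone was high. FKBP5, a co-chaperone of steroid receptors, had a difference of -2.27 (SD between probes 0.072) and GNG10, a G protein gamma subunit, -2.25 (SD 0.268). HK2, the hexokinase that starts glycolysis, had -2.01 (SD 0.161) and FNIP2, a partner of folliculin, -1.92 (SD 0.267), each from 2 probes. The low-ratio IFI16, a sensor of DNA, had -2.15 (SD 0.113, 2 probes), with levels of -2.01, -1.92, -1.87 and -3.93. For IFI16 the array apart was untreated RC-K8, which was low. EYA2 was at -1.86 and the protease TMPRSS3 at -2.03, with wider gaps between their 2 probes (SD 0.570 and 1.26).

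MYC needs its probes read apart. Its first probe was at -1.16, -1.11, 2.38 and -0.65 on the 4 arrays and its second at -1.26, -1.38, 1.38 and -2.37. On both, treated RC-K8 was by far the highest array and the RC-K8-R responses were -0.05 and 0.12, giving differences of responses of -3.07 and -3.62. The third MYC probe was at -0.38, -0.45, 0.65 and 0.72, with no response in either line and a difference of 0.15. The gene's median of -3.07 therefore rests on 2 of 3 probes.

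Promoters of genes whose induction was lost were searched for 2 short motifs, to show which of these genes carry a letter match to a site of the factors named above. The windows are RefSeq's, on GRCh38.p14, and the 250 bases before each gene start were searched. CACGTG is the core E-box, the motif bound by MYC with MAX, and TTCNNNGAA is the core of a STAT site. Both read the same on either strand. CACGTG was found for 25 of the 142 lost induced genes with a window (17.6%) and for 12 of 157 lost repressed genes (7.64%), against 10.9% of 10692 measured genes and 7.73% of all 27305 genes of the table. TTCNNNGAA was found for 6.34% of the lost induced and 7.01% of the lost repressed genes, against 7.4% and 8.09%. A match is a string of letters and not a binding site, and a window without one says nothing about the factor. The stretches around the matches of 5 named genes follow, 5′ to 3′ on the strand of the gene, with the motif in capitals; IRF1, BCL6 and SRM lie on the minus strand and LDHA and JMY on the plus strand.
IRF1, chr5:132490849-132490937: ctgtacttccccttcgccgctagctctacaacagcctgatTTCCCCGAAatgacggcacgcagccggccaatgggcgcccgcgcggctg
BCL6, chr3:187745469-187745536: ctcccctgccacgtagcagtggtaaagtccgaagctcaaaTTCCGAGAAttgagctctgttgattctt
LDHA, chr11:18394338-18394521: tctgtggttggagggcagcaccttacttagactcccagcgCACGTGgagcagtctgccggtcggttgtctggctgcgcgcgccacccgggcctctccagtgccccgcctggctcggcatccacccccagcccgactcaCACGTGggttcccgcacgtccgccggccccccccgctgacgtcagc
SRM, chr1:11060172-11060257: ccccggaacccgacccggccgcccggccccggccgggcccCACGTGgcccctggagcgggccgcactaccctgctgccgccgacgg
JMY, chr5:79236047-79236130: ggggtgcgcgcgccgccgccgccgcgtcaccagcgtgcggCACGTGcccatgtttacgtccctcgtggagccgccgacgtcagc

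IRF1 and BCL6, whose stretches hold TTCNNNGAA, are transcription factors of the interferon response and of the germinal centre. IRF1 was at -0.36, -0.41, 0.66 and -1.24, a difference of -1.85, and BCL6 at 2.77, 2.77, 4.11 and 2.52, a difference of -1.59, each from 1 probe. For each gene the RC-K8-R arrays lay together, between the treated and the untreated RC-K8 array. LDHA, the lactate dehydrogenase, whose stretch holds CACGTG at 2 places, was at -1.80, -1.78, -0.155 and -1.496. Treated RC-K8 was the only array that stood apart, and the difference was -1.34 (SD between probes 0.019, 3 probes). SRM, the spermidine synthase, was at -0.66, -0.65, 0.53 and -0.77, a difference of -1.31.

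Genes lower with IL-21 in RC-K8 and not in RC-K8-R were of varied function. POFUT3, a protein O-fucosyltransferase, was at -0.29, -0.39, -5.90 and -1.32, so the treated RC-K8 array alone was far below the rest. LYST, a regulator of lysosome traffic, was at 1.25, 1.46, -1.42 and 1.13, a difference of 2.34. The serotonin receptor gene HTR2B was at 5.88, 5.85, 3.17 and 5.68, a difference of 2.54. In both, 3 arrays lay close together and treated RC-K8 was low. The Wnt co-receptor KREMEN2, the microtubule-binding CLIP2, the protease PLAU and FAM167A-AS1 had differences between 2.20 and 2.86, each on 1 probe.

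Among genes with 2 or more probes, all in the same direction, the highest differences after MX2 were those of BCL2L1, RASSF4 and IGLJ3. BCL2L1, the gene of the anti-apoptotic BCL-XL, had a difference of 2.01 (SD between probes 0.287), with levels of 2.35, 2.01, -1.14 and 0.53. RASSF4, a RAS-association protein, was at 1.06, 0.87, -0.86 and 0.89, a difference of 1.94 (SD 0.502). For BCL2L1 both RC-K8-R arrays stood above both RC-K8 arrays, whereas for RASSF4 only treated RC-K8 was apart. The low-ratio IGLJ3, a joining segment of the lambda light chain, was at -2.32, -2.49, -4.51 and -2.76, a difference of 1.93 (SD 0.049). The myosin light chain kinase MYLK had 1.82 (SD 0.190), the collagen receptor DDR1 1.78 (SD 0.340), the scaffold DLG5 1.69 (SD 0.047) and the ganglioside enzyme B3GALT4 1.61 (SD 0.112). SERTAD4 (1.72, SD 0.457), the CD47 receptor gene SIRPA (1.70, SD 0.798), the low-ratio TMEM185A (1.66, SD 1.42) and ANKRD36BP2 (1.56, SD 0.636) completed the 12 highest with MX2, and their probes differed more. MX2, an interferon-induced GTPase, had probes at 0.055 and 3.998 so its median of 2.03 describes neither. At the other end, SASH1 (-1.90) was the member of the 12 lowest whose difference came from RC-K8-R, on probes at -0.21 and -3.60.

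**Figure D4:**
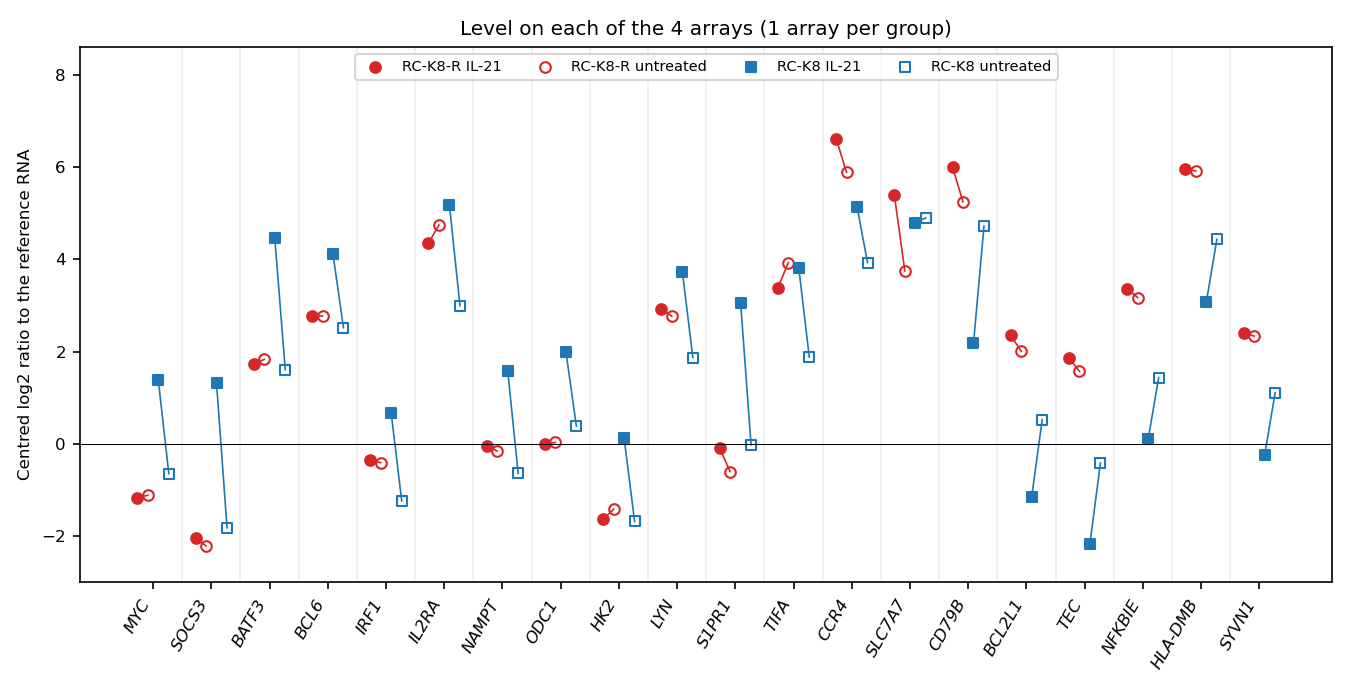
Centred log2 ratio to the reference RNA of 20 genes on each of the 4 arrays, with filled symbols for IL-21 and open symbols for untreated. Lines join the 2 arrays of a line; for most genes the RC-K8-R pair is nearly level while the RC-K8 pair is steep, and CCR4, S1PR1, TIFA, SLC7A7 and CD79B are among the exceptions described in the text.

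Responses that RC-K8-R retained were few, and those at 2-fold in both lines were all in low-ratio genes. The 4 induced genes kept were HIC1, ZIC1, MISP and RAB32 and the 2 repressed genes kept were LY6K and P2RY6, with mean log2 ratios between -5.87 and -2.50. They are named after their values were seen, as are CCR4, ADRA1B, CD226 and FSIP1 below. At -2 or more the reduced genes were S1PR1, CCR4 and ADRA1B among the induced, and CD226 and FSIP1 among the repressed, each on 1 probe. S1PR1, the sphingosine-1-phosphate receptor that draws lymphocytes out of tissue, was at -0.09, -0.60, 3.06 and -0.02, responses of 0.51 in RC-K8-R and 3.08 in RC-K8. The chemokine receptor CCR4 was at 6.62, 5.88, 5.14 and 3.93, responses of 0.73 and 1.21. For CCR4 the higher array in each line was the treated one, and both RC-K8-R arrays lay above both RC-K8 arrays. The adrenergic receptor ADRA1B had responses of 0.50 and 1.85, the adhesion receptor CD226 -0.76 and -1.26, and FSIP1 -0.59 and -1.01.

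Inversions were few. At a mean ratio of -2 or more 6 genes moved in opposite directions by the rule, each on 1 probe, and the difference was not tested. CD79B, the signalling chain of the B cell receptor, was at 6.00, 5.24, 2.18 and 4.72. The treated RC-K8-R array was thus the highest of the 4 and treated RC-K8 the lowest, with responses of 0.75 and -2.54. TIFA, an adaptor that links receptors to TRAF6 and NF-kappaB, was at 3.38, 3.93, 3.81 and 1.88, responses of -0.55 and 1.93. Its untreated RC-K8 array was the low one, and the other 3 lay between 3.38 and 3.93. SPAG16, a sperm flagellum gene, had responses of 1.93 and -1.35, the tight-junction gene CGN 0.62 and -1.75, the integrin ITGA9 -0.88 and 1.02, and the POU factor POU6F1 0.52 and -1.20. The inverted genes were 1.79% and the reduced ones 1.49% of the 335 RC-K8 responders at that level, and 96.7% were lost. With 97.1% of all genes at that level under 0.5 in RC-K8-R, these counts are near the background.

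Genes at 2-fold in RC-K8-R and under 0.5 in RC-K8 numbered 85, of which 25 were higher and 60 lower, and 62 of the 85 lay below a mean ratio of -2. At -2 or more there were 5 higher and 18 lower. Of the families examined, the amino acid transporters held a member of this kind at -2 or more: SLC7A7, a subunit of a cationic amino acid exchanger, was at 5.40, 3.75, 4.80 and 4.90. Its untreated RC-K8-R array was the lowest of the 4, so its response of 1.65 brought RC-K8-R above RC-K8, and the difference was 1.75 on 1 probe. The interferon-induced HERC6 (responses of 1.79 and 0.08) and the inflammatory protease CASP1 (-1.49 and -0.04) were low-ratio genes, at mean ratios of -2.01 and -3.14.

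The families were then compared, by the median response of their measured members in each line. Over 46 families the median response lay between -0.08 and 0.14 in RC-K8-R, and between -0.37 and 0.79 in RC-K8. The families therefore differed in what RC-K8 did, and all of them were near 0 in RC-K8-R. The median difference was below 0 in 23 families and above 0 in 23, and it took the other sign under at least 1 other scaling in 5 of them, namely fate regulators, KLF and FOXO factors, caspases, p53 targets and cholesterol synthesis. Counting the choices of probe and level as well, 11 families took the other sign under at least 1 alternative.

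**Figure D5:**
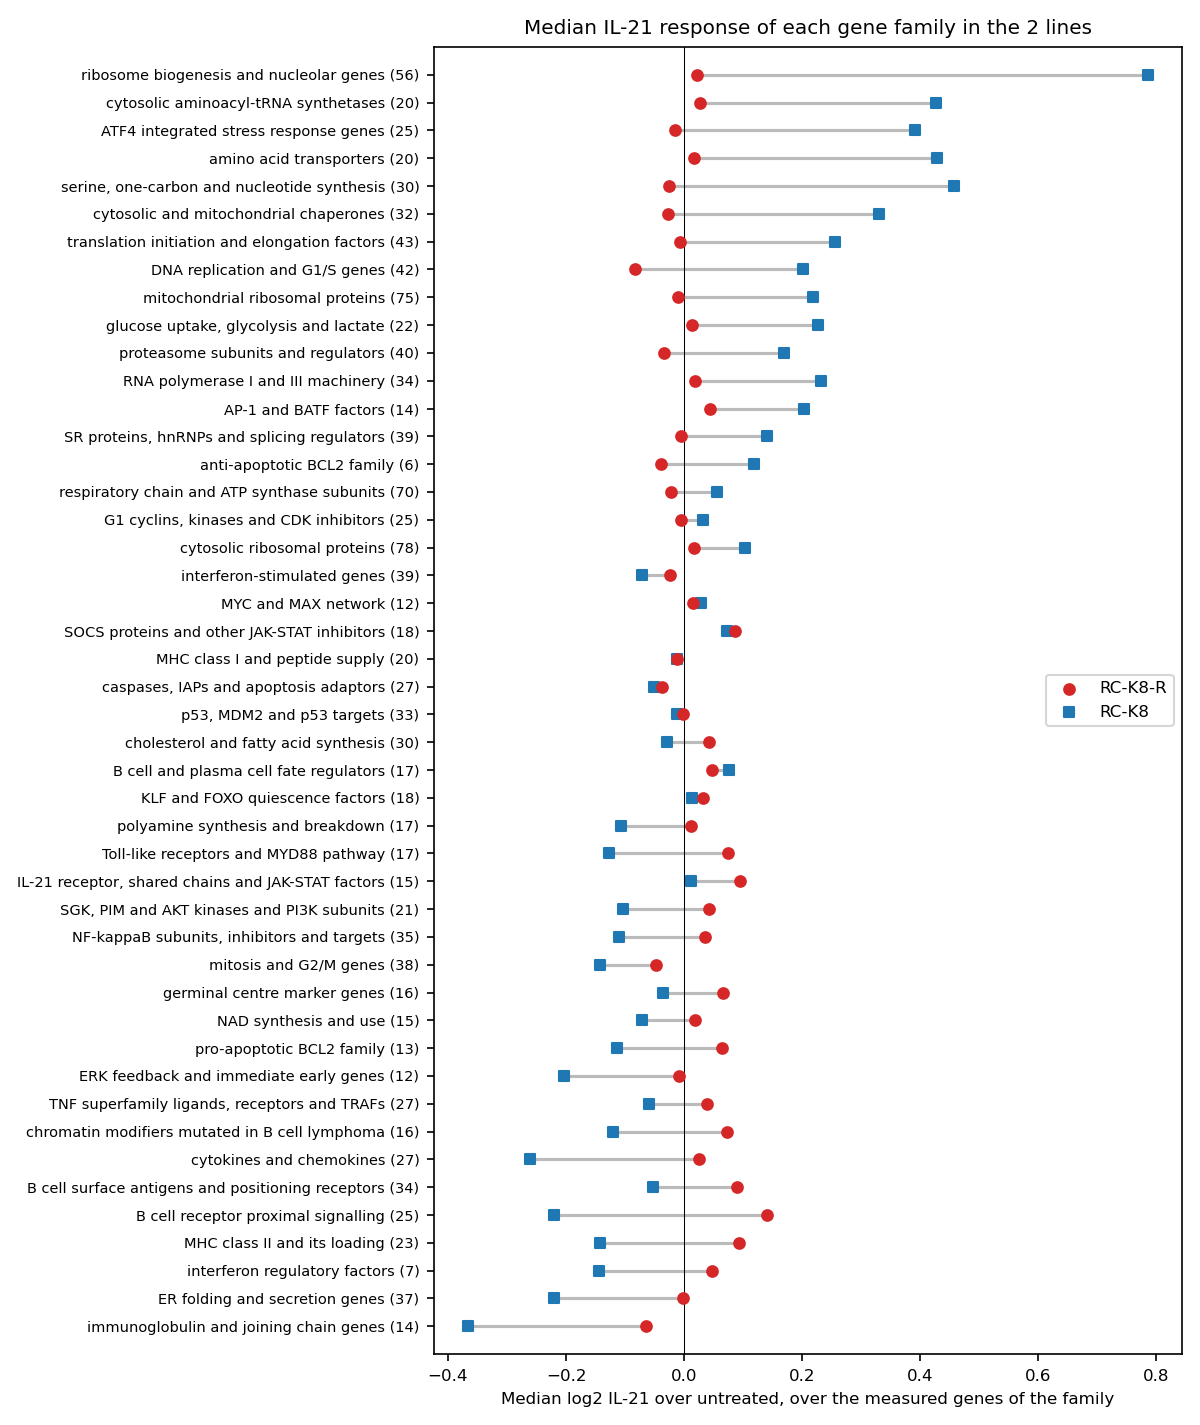
Median IL-21 response of each of 46 gene families in RC-K8-R (circles) and RC-K8 (squares), in log2 of IL-21 over untreated, with the number of measured genes. Families run from the most negative difference of responses at the top to the most positive at the bottom; circles stay between -0.08 and 0.14, and squares reach 0.79 for ribosome biogenesis and -0.37 for immunoglobulin genes.

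The receptor chains IL21R and IL2RG and the kinases JAK1 and JAK3 were under 2-fold in the difference. IL21R, on 1 probe, was at 3.13, 3.01, 3.02 and 2.94, nearly level across the arrays, with a difference of 0.045. IL2RG, also on 1 probe, was at -2.39, -2.46, 0.41 and 0.80. On that probe both RC-K8-R arrays were far below both RC-K8 arrays while the difference of responses was 0.46. JAK1 and JAK3 had differences of 0.33 and 0.01. Among the 15 measured of 19 members of the list, the median difference was 0.085, and it was -0.54 over members having several probes of the same sign. Of the 15, 1 was at 1 or more, where 2.47% of all genes were, and 2 at -1 or less, where 2.31% were.

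The members that did differ were targets as well as parts of the pathway. IL2RA, the alpha chain of the IL-2 receptor, was at 4.35, 4.74, 5.17 and 2.996, high on every array, and lowest in untreated RC-K8. Its difference was -2.57, from probes at -3.50 and -1.64. STAT3 was at 1.36, 1.35, 2.13 and 1.06, a difference of -1.06 (SD between probes 0.253, 3 probes). STAT5A (-0.76) and STAT5B (-0.54) also had a higher response in RC-K8, short of 2-fold, and STAT6 did not (0.09). In the other direction stood IL10RA, the IL-10 receptor chain, at 4.12, 3.90, 1.05 and 2.06, a difference of 1.06. STAT4 and IL7R had no probe with a value on all 4 arrays.

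Of the SOCS proteins and other inhibitors of this pathway, SOCS3 alone reached 2-fold, where 4.77% of all genes did. It was at -2.03, -2.21, 1.31 and -1.82, high on the treated RC-K8 array and low on the rest, with a difference of -2.96 on 1 probe. The next members were SOCS1 (-0.66) and the phosphatases PTPN2 (-0.50) and PTPN1 (-0.42), which act on JAK kinases. SOCS4 had similar responses in both lines, 0.53 in RC-K8-R and 0.59 in RC-K8, and CISH had -0.16 and 0.11. The 18 measured of 19 members had a median difference of -0.02.

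Transcription factors induced in RC-K8 lost that induction as individual members. The AP-1 partners BATF3 and BATF had differences of -2.96 and -1.71, and ATF3 had -1.05 (SD between probes 0.291). BATF3 was at 1.73, 1.83, 4.46 and 1.61, so that treated RC-K8 alone was high. Of 14 measured AP-1 members 3 were thus at -1 or less, where 2.31% of all genes were. The remaining 11 were under 2-fold, among them JUNB at 0.04, and the family median was -0.16. IRF1 was lost as given above, and the low-ratio IRF2 (-1.74) had responses of -1.23 in RC-K8-R and 0.51 in RC-K8, while IRF4 was at 3.23, 3.24, 1.87 and 2.67, a difference of 0.80.

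Regulators of B cell fate went both ways. The octamer-binding factor POU2F2 was at 3.26, 3.11, 3.30 and 1.72, a difference of -1.43 (SD between probes 0.431), and its coactivator POU2AF1 at 1.34, 1.29, 1.93 and 0.65, a difference of -1.23. For POU2F2 untreated RC-K8 was the lowest array on both probes, at 1.276 and 2.167. Treated RC-K8 was below both RC-K8-R arrays on the first probe, at 2.751, and above both on the second, at 3.840. The median levels of POU2F2, on which these 3 arrays lie close together, thus describe neither probe. The E protein TCF3 (1.12, SD 0.255) and PAX5 (0.99) lay on the positive side, PAX5 with levels of 2.13, 1.69, -0.12 and 0.42. Over 17 measured of 20 members the median difference was 0.02, and it was -0.04 after quantile normalization and -0.11 after loess correction. At 2-fold were 1 positive (2.47% of all genes) and 3 negative (2.31%). For PRDM1, the plasma cell regulator, 3 of the 4 arrays were blank and no difference could be formed.

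Ribosome biogenesis was the family, of the 46, in which every measured member had a response lower in RC-K8-R than in RC-K8. All 56 measured of its 60 members had a difference below 0, where 47.7% of all genes did, and 15 were at -1 or less, where 2.31% of all genes were. The median response was 0.02 in RC-K8-R and 0.79 in RC-K8, a median difference of -0.80, and it was -0.79 to -0.87 under the other scalings. The 15 members at 2-fold higher in RC-K8 were all lost, where 95.4% of all genes were under 0.5 in RC-K8-R. Median levels were 0.06 in RC-K8-R with IL-21, 0.04 in RC-K8-R untreated, 0.79 in RC-K8 with IL-21 and -0.02 in RC-K8 untreated, so the untreated lines were close and only treated RC-K8 stood apart.

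Single members show this on each array. DDX21, a helicase of rRNA processing, was at 0.85, 0.88, 2.45 and 0.86, a difference of -1.62. NOP56, a core protein of box C/D snoRNPs, was at -0.47, -0.39, 1.11 and -0.30, a difference of -1.44 (SD between probes 0.138, 3 probes). For both, 3 arrays were level and treated RC-K8 was high. LYAR (-1.42), BOP1 (-1.31), WDR43 (-1.30) and RRP9 (-1.23) followed. The smallest differences were those of NOC4L (-0.06), UTP15 (-0.15) and FTSJ3 (-0.17), and the abundant nucleolar proteins NPM1, from 6 probes, and FBL were at -0.52 and -0.49.

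The machinery around ribosome assembly followed to a lesser degree. Among 34 RNA polymerase I and III genes, POLR1B (-1.05) and POLR1G (-1.01, from probes at -1.74 and -0.28) were at 2-fold (4.77% of all genes). Their family median was -0.18. Of 43 translation factors, 38 had a difference below 0, where 47.7% of all genes did, with a median of -0.30. EIF4EBP1, the inhibitor of the cap-binding protein EIF4E, was at 2-fold (-1.16). EIF4E itself was at -0.89. Of 20 aminoacyl-tRNA synthetase genes, 17 were below 0 (47.7% of all genes), with a median of -0.52, and WARS1, for tryptophan, was at 2-fold (-1.17). Proteins of the ribosome itself differed less: 61 of 78 cytosolic ribosomal protein genes were below 0 (47.7% of all genes) but their median was -0.08. Of 75 mitochondrial ones 65 were below 0, with a median of -0.23, and 0 were at 2-fold in either set (4.77% of all genes).

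Chaperones, which fold new proteins, had 27 of 32 members below 0 (47.7% of all genes) and a median of -0.33. The mitochondrial chaperonin HSPE1 (-1.11) and the DnaJ proteins DNAJA3 (-1.09) and DNAJC2 (-1.05) were at 2-fold (4.77% of all genes). HSPE1 was at -0.92, -0.61, 0.19 and -0.61, so that a response of -0.31 in RC-K8-R added to one of 0.80 in RC-K8. The proteasome had 35 of 40 members below 0 (47.7% of all genes) at a median of -0.19, and the respiratory chain 54 of 70 at -0.12. In each, 0 were at 2-fold (4.77% of all genes).

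Amino acid supply was a second block of lost induction. Of 20 measured amino acid transporters, 5 were at -1 or less (2.31% of all genes) and 15 below 0 (47.7% of all genes), with a median of -0.45. The list holds 1 carrier of nucleobases, SLC43A3, which is among those 5. SLC3A2, the heavy chain shared by several exchangers, was at -0.03, -0.04, 1.08 and -0.32, a difference of -1.38 (SD between probes 0.051). The RC-K8-R arrays were level, and RC-K8 had its lowest value untreated and its highest with IL-21. SLC43A3 had -1.29 (SD 0.265), the cystine carrier SLC7A11 -1.16, the glutamine carrier SLC1A5 -1.14 and the large neutral amino acid carrier SLC43A1 -1.13. SLC7A5, the light chain that pairs with SLC3A2, was just short of 2-fold at -0.95. SLC1A4 (0.87) and SLC6A6 (0.76) lay on the other side, with SLC7A7.

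Genes of the ATF4 integrated stress response, which answers amino acid shortage, overlap with this set. Of 25 measured, 20 were below 0, where 47.7% of all genes were, and 5 at -1 or less, where 2.31% were, with a median of -0.48. Those 5 were PSAT1 (-1.28) and MTHFD2 (-1.26), which make serine and mitochondrial one-carbon units, SLC7A11, ATF3 and the leucine sensor SESN2 (-1.01). PSAT1 was at 0.92, 0.93, 2.31 and 1.04, and SESN2 at 1.59, 1.59, 2.72 and 1.72. In both, treated RC-K8 was the only high array. ATF4 was at -0.50 and its partner DDIT3 at -0.09.

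Serine, one-carbon and nucleotide synthesis had 28 of 30 members below 0 (47.7% of all genes) and a median of -0.45, with 4 at -1 or less (2.31% of all genes). Besides PSAT1 and MTHFD2 these were CAD, the first enzyme of pyrimidine synthesis, at -0.54, -0.55, 0.49 and -0.76, and NME1, a nucleoside diphosphate kinase, at -0.84, -1.004, 0.08 and -1.32. Their differences were -1.25 and -1.24, and the RC-K8-R levels lay nearer to untreated than to treated RC-K8. Glycolysis was uneven: HK2, ENO1 (-1.36, SD between probes 0.164) and LDHA were at -1 or less (2.31% of all genes), and the median of 22 members was -0.19. Polyamine synthesis likewise turned on single enzymes, ODC1 (-1.64) and SRM, against a family median of 0.05 over 17 members. Both enzymes were at -1 or less (2.31% of all genes). The low-ratio spermine oxidase SMOX (1.14) was at 1 or more (2.47% of all genes). ODC1, which starts the pathway, was at 0.00, 0.03, 1.997 and 0.38. In NAD metabolism NAMPT alone was at 2-fold (4.77% of all genes), with a median of 0.16 over 15 members.

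Cell cycle genes took different signs. DNA replication and G1/S genes had 33 of 42 members below 0 (47.7% of all genes) and a median of -0.25. Mitosis genes had 26 of 38 above 0 (52.2% of all genes) and a median of 0.13. In each, 0 were at 2-fold (4.77% of all genes). The replication genes had a median response of -0.08 in RC-K8-R, the lowest of the 46 families there, and 0.20 in RC-K8. CDK6, a kinase of G1, was at 1.64, 1.49, 1.92 and 0.72, a difference of -1.05 (SD between probes 0.009). Its 2 probes gave like differences from unlike levels. On the first, treated RC-K8 stood apart at 2.541, and untreated RC-K8 (1.425) was level with untreated RC-K8-R (1.427). On the second, untreated RC-K8 was the low array at 0.008. The inhibitor CDKN1C (-1.14) was a low-ratio gene.

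On the positive side stood part of the genes of B cell receptor signalling, antigen presentation and secretion. Of 25 measured B cell receptor signalling genes, 3 were at 1 or more, where 2.47% of all genes were. At -1 or less there was 1, where 2.31% of all genes were, and the median was 0.245. TEC, a kinase of the BTK family, was at 1.87, 1.57, -2.16 and -0.41, a difference of 2.04, and both RC-K8-R arrays were above both RC-K8 arrays. BTK, a low-ratio gene here, was at -2.16, -2.44, -3.58 and -2.06, a difference of 1.79. BLK was at 3.34, 3.17, 1.37 and 2.12, a difference of 0.92 short of 2-fold. LYN, a kinase that starts and also restrains receptor signalling, went the other way, at 2.93, 2.76, 3.73 and 1.87 and a difference of -1.69.

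CD79A, the partner of the inverted CD79B, did not share its difference, with 2.01, 1.73, 0.99 and 0.95 and a difference of 0.245. The median response of the receptor signalling family in RC-K8-R, 0.14, was the highest of the 46 there, with 17 of 25 members above 0, where 50.9% of all genes were. Immunoglobulin genes had 13 of 14 measured members above 0, where 52.2% of all genes were, and a median difference of 0.48. The low-ratio IGLL1, of the surrogate light chain, was the member of the list at 2-fold (IGLJ3, described above, is not on it), and its 3 probes were at 2.40, 2.18 and -0.13.

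Class II antigen presentation had a median difference of 0.26 over 23 genes, which was 0.07 after loess correction and 0.10 after quantile normalization. HLA-DMB, which edits the peptides on class II, was at 5.96, 5.91, 3.08 and 4.43, a difference of 1.40, and both RC-K8-R arrays were above both RC-K8 arrays. HLA-DRA had a response of 0.79 in RC-K8-R and -0.11 in RC-K8, a difference of 0.90. HLA-DQA1 had probes at -2.62 and 0.09, so its median of -1.27 has no settled direction, and probes for HLA genes can bind several alleles and near-identical copies. Class I genes had a median of -0.01 with 0 of 20 at 2-fold (4.77% of all genes).

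Surface antigens and germinal centre genes each held members of both signs. The costimulatory receptor CD40 (1.05, 0.82 after loess correction) and the adhesion ligand CD58 (1.01) were positive, and S1PR1 and CD80 (-1.03, SD between probes 0.301) negative, among 34 surface antigens with a median of 0.23. The germinal centre genes GCSAM (1.35), ELL3 (1.27, SD 0.174) and SSBP2 (1.09) were positive and PAG1 (-1.93) and BCL6 negative, among 16. At 1 or more were thus 2 of the 34 surface antigens and 3 of the 16 germinal centre genes (2.47% of all genes). At -1 or less were 2 of each list (2.31% of all genes). GCSAM, which binds the cytoskeleton in germinal centre B cells, was at 4.65, 4.48, 1.39 and 2.57, and PAG1, a membrane adaptor that restrains Src kinases, at -0.98, -1.004, 1.43 and -0.52. GCSAM was thus higher on both RC-K8-R arrays and PAG1 was high in treated RC-K8 alone.

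Components and targets of NF-kappaB, a factor of B cell survival and inflammation, had 4 of 35 measured members at 1 or more (2.47% of all genes) and 0 at -1 or less (2.31%), with a median of 0.12 that was 0.06 after loess correction. The inhibitor NFKBIE was at 3.36, 3.17, 0.10 and 1.44, and the kinase IKBKE at 1.00, 1.12, -0.99 and 0.44. Both RC-K8-R arrays were above both RC-K8 arrays for each, and the differences were 1.53 and 1.31. TNF was at 4.90, 4.71, 2.79 and 3.85, a difference of 1.25 (SD between probes 0.165; 0.996 after loess correction). CD40 was the other member, and of the subunits REL was at 0.78, RELB at 0.54 and NFKB1 at 0.12. In the TNF superfamily, TNFRSF21 (1.198) and TRAF6 (1.10) joined TNF and CD40 at 1 or more (2.47% of all genes). At -1 or less were 0 of 27 (2.31% of all genes).

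Of 27 measured cytokines and chemokines, 20 had a difference above 0, where 52.2% of all genes did, with a median of 0.23. IL16 (1.25, SD between probes 0.589) and TNF were positive at 2-fold, and TGFB2 (-1.42) and CXCL8 (-2.15) negative and low-ratio. CXCL8, the neutrophil chemokine, was inverted, with responses of -0.90 and 1.25 and levels of -3.03, -2.13, -1.90 and -3.15. Lymphotoxin LTA had a difference of 0.73, CCL17 0.44 and IL4 0.23.

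Endoplasmic reticulum folding and secretion genes had 30 of 37 members above 0, where 52.2% of all genes were, and a median of 0.33, 0.28 to 0.34 over the other scalings. SYVN1, the ligase that marks misfolded proteins, was at 2.41, 2.33, -0.24 and 1.10, a difference of 1.42 (SD between probes 0.081), and DNAJC3, a chaperone of the same compartment, at 2.44, 2.05, -0.12 and 0.78, a difference of 1.29. The RC-K8-R arrays were the higher pair for both. PDIA4 (0.98), HERPUD1 (0.93), XBP1 (0.61) and HSPA5 (0.39) lay on the same side short of 2-fold. The ER set and the cytosolic chaperones, which both fold proteins, thus had medians of opposite sign.

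Among apoptosis genes BCL2L1 was the member with a large difference. The other 5 measured anti-apoptotic members lay between -0.57 (BCL2A1) and 0.06 (BCL2L2), with MCL1 at -0.21 and BCL2 at -0.04. Of the 13 measured pro-apoptotic members 0 were at 2-fold in either direction, where 4.77% of all genes were. PMAIP1 was at 0.75, BCL2L11 at 0.21 and the median at 0.17. Of 27 caspases, IAPs and adaptors only the low-ratio CASP1 was at 2-fold (4.77% of all genes). Of 33 p53 targets SESN3 (1.62) and SESN2 were at 2-fold (4.77% of all genes), in opposite directions. CDKN1A was at 0.37 and MDM2 at -0.105.

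Some of the remaining families held members at 2-fold, a size of difference seen in 4.77% of all genes. SGK1 was the member among SGK, PIM and AKT kinases (-3.26), at -2.16, -2.17, 0.74 and -2.54, while PIM2 had -0.57. Of 39 interferon-stimulated genes, with a median of -0.03, 3 were at 1 or more (2.47% of all genes) and 1 at -1 or less (2.31%). Those not low-ratio were GBP2, an interferon-induced GTPase (-1.44), and SAMD9 (1.31, SD between probes 0.228). The immediate early factor NR4A1 (1.18) was low-ratio, as was LY96 (-2.22), a partner of TLR4. FOXP1 (1.07, SD 0.025) among KLF and FOXO factors and ARID2 (1.16), a chromatin remodeller mutated in lymphoma, were positive. Cholesterol and fatty acid synthesis, splicing factors and the MAX network apart from MYC had 0 members at 2-fold.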

How the data were processed

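Each of the 4 samples was labelled with Cy5 and hybridised against a human reference total RNA labelled with Cy3, per the labels. The authors deposited 1 ratio per probe, read here as a log2 ratio of sample over reference because of its range; the sources used here do not give the log base, the spot filter or how background and arrays were corrected, and the direction was taken from the dyes in the labels. Blank values are missing from the deposited table. Of 31095 probes, 25570 had 1 gene symbol in the platform annotation, 28 had several and 5497 were not listed; 25541 were matched to RefSeq, and 23260 probes had values on all 4 arrays. The median over those probes was set to 0 on each array. For a gene, levels, responses and the difference are medians over probes, each probe's own difference being taken first, so printed values of a gene with several probes need not subtract exactly.

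Groups came from the sample labels. The difference was read at 2-fold (log2 of 1), without a test, since there is 1 array per group. Depth has no equivalent on arrays, and the number of arrays limits the precision. The gene families, the markers and the genes named were chosen with earlier results of these data known. Named genes were the 12 highest and 12 lowest among genes with 2 or more probes all in the same direction, the kept (up to 5), inverted (up to 8) and strongest lost genes (8 each way) at a mean log2 ratio of -2 or more, family members at 2-fold (at most 6), family members kept or inverted, and 8 genes of the study, with other family members as examples. Alternatives were no centring, quantile normalization, equal median absolute deviation, loess correction on mean log2 ratio (span 0.3, 3 iterations), the probe mean, only the highest-ratio probe, a mean ratio of -2 or more, 2 or more probes in the same direction, folds of 1.5 and 3, and natural log. The calculation was run on simulated data with noise well below that of the arrays and set changes in treated RC-K8 only. That run checks the arithmetic and says nothing about the precision of the values. Promoter windows are RefSeq's on GRCh38.p14, and for the authors' arrays no build is given in the sources used here. Python 3.11.15, numpy 2.4.6, pandas 2.3.3 and matplotlib 3.10.9 were used.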

Additional observations from a re-analysis of the deposited data

Results flagged for a closer look

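A set of 6 genes at a mean log2 ratio of -2 or more moved in opposite directions in the lines, and the difference was not tested. Taken as the response in RC-K8-R less that in RC-K8, the values were 3.29 for CD79B, 3.28 for SPAG16, 2.37 for CGN, 1.72 for POU6F1, -1.91 for ITGA9 and -2.48 for TIFA, each on 1 probe.

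Some probes had a value on 1 array and a blank on the other 3, in genes with no probe measured on all 4, so that no difference of responses can be formed. For probes with a value on the RC-K8-R IL-21 array alone, centred log2 ratios were 3.36 for BLNK, an adaptor of the B cell receptor, 3.24 for MIR4453HG, 2.81 for the costimulatory ligand TNFSF4, 2.74 for AFTPH-DT, 2.65 for MNS1 and 2.31 for the deubiquitinase CYLD. XIAP, an inhibitor of caspases, was at 2.27 there, ARL14EP at 2.16, ARPIN-AP3S2 at 2.13, PFKFB1 at 2.09, FNDC9 at 2.02 and QTMAN at 2.01. For probes with a value on the RC-K8 IL-21 array alone, interferon gamma (IFNG) was at 4.65, HSD11B1 at 3.03, the DNA demethylase TET2 at 2.73, ALPK2 at 2.58, TKTL2 at 2.17 and PRDM1, the plasma cell regulator, at 1.47. A second probe gave CYLD 2.89 with IL-21 and 2.47 untreated in RC-K8-R, and TET2 1.52 with IL-21 and 1.24 untreated in RC-K8-R against 1.197 with IL-21 in RC-K8, so these genes are not seen on 1 array alone. ARL14EP also had a second probe with values on both RC-K8-R arrays, at 1.57 with IL-21 and 1.52 untreated. What a blank means is not stated, and probes with a value on 1 array only were also found for the untreated arrays, 344 for RC-K8-R and 413 for RC-K8, against 581 for RC-K8-R with IL-21 and 262 for RC-K8 with IL-21.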

How the results depend on the processing

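The genes at 2-fold numbered 332 positive and 310 negative, and 337 and 305 without centring, 340 and 366 after quantile normalization, 354 and 327 with equal median absolute deviations, and 274 and 352 after loess correction. Loess kept 272 of the 332 and 305 of the 310. They were 71 and 69 where 2 or more probes had to share the direction, 1089 and 1093 at 1.5-fold, 85 and 75 at 3-fold, and 750 and 792 if the values are natural logs. The share lost was 97% of induced and 96.4% of repressed genes at a mean ratio of -2 or more (kept 0 and 0, inverted 2 and 4). It was 100% and 98.1% with 2 or more probes agreeing in the direction of the difference (kept 0 and 0, inverted 0 and 0). Of the kept genes, LY6K has probe differences of -0.755 and 0.067 and the others have 1 probe. All of them thus failed this filter, and its 0 kept says nothing further about retention. The share was 85.8% and 80.5% at 1.5-fold (kept 21 and 27, inverted 49 and 70). At 3-fold 0 induced genes were kept and 2 inverted, and 100% of repressed genes were lost, with 0 kept and 0 inverted. With natural logs 12 induced genes were kept and 29 inverted, and 17 repressed genes were kept and 41 inverted. Quantile normalization gave 93.3% of repressed genes lost, 1 kept and 8 inverted, and equal median absolute deviations and loess each left 1 repressed gene kept. With the probe of highest mean ratio 3 of the 120 genes named by rule changed sign, HLA-DQA1 (0.093), IGLL1 (-0.13) and MYC (0.15), because their probes disagree. Family medians that turned over members having several probes of the same sign were those of the IL-21 receptor family (-0.54), SOCS proteins (0.249), AP-1 factors (0.058), class I genes (0.167), caspases (0.228) and p53 targets (-0.144). With the probe of highest mean ratio those of the MAX network (0.017) and the anti-apoptotic BCL2 family (0.005) turned. The cause of the other changes was not tested. No paired analysis was possible because there is 1 array per group. Genes at a mean ratio below -2, of which 16% were at 2-fold in the difference, are where the RC-K8-R response spread most widely. Only ratios were used, so whether a weak signal lies behind that spread was not tested.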
